A study of Mus musculus with 4 samples.

Results

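Cholesterol synthesis and its control by SREBP2 were followed in 28 genes in the epithelium of the mouse small intestine. The genes were taken by symbol from a list of pathway members, all found among the 27998 genes of the matrix. The rule itself uses no measured value, but the list was chosen with earlier results of these data known. Counts of the set beside all genes are therefore descriptive. They fall into 8 genes from acetyl-CoA to farnesyl pyrophosphate, 11 from squalene to cholesterol, 4 regulators and 5 genes of sterol uptake, transport and receptor turnover. Single-cell RNA libraries of dissociated small intestine were made from male mice on a ketogenic diet (2 libraries) and from male mice on a control diet (2 libraries). A ketogenic diet is rich in fat and very poor in carbohydrate. Strain, age, time on the diet and animals per library are unknown here, so a p-value measures only the spread between libraries, which may be technical.

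Cells make cholesterol from acetyl-CoA by way of mevalonate, farnesyl pyrophosphate, squalene and lanosterol. When the membranes of the endoplasmic reticulum lack sterol, the escort protein Scap carries the transcription factor SREBP2 (gene Srebf2) to the Golgi, where it is cut and released to switch on the synthesis and uptake genes. When sterol is plentiful, the Insig proteins hold Scap and SREBP2 back. Enterocytes both make cholesterol and absorb it from the diet, and the balance between these sources is a known feature of this tissue.

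The promoters of 23 of the 28 genes were found in a RefSeq table of build GRCm38.p6, as 29 promoters. Those of Hmgcs1, Mvd, Cyp51, Msmo1 and Insig1 are shown because these genes recur in the results below. Each is the stretch of 250 bases that ends just before the RefSeq start site, written on the strand of the gene: chr13:119690101-119690350 on the plus strand for Hmgcs1, chr8:122443423-122443672 on the minus strand for Mvd, chr5:4104698-4104947 on the minus strand for Cyp51, chr8:64733579-64733828 on the minus strand for Msmo1 and chr5:28071162-28071411 on the plus strand for Insig1. Capitals mark matches on either strand to the sterol regulatory element TCACNCCAC, which SREBP2 can bind, and to CCAAT, the box bound by the factor NF-Y.
Hmgcs1: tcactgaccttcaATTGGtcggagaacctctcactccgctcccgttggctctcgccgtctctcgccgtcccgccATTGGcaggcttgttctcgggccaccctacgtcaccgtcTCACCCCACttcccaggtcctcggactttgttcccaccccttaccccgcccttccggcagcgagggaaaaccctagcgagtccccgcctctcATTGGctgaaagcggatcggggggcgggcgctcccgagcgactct
Mvd: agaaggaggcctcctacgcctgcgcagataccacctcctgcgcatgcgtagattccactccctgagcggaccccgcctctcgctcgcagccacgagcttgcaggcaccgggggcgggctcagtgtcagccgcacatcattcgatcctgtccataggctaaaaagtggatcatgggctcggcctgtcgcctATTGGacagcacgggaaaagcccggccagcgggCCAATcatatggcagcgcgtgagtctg
Cyp51: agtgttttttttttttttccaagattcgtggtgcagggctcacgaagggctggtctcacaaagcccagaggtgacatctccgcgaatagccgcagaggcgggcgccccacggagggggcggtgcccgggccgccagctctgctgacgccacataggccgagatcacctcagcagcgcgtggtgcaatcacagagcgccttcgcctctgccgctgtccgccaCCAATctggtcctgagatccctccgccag
Msmo1: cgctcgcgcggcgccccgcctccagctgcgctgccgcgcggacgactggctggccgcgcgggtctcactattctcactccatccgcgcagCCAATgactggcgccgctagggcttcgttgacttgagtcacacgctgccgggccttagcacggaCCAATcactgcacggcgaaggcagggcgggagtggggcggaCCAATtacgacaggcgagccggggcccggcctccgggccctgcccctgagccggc
Insig1: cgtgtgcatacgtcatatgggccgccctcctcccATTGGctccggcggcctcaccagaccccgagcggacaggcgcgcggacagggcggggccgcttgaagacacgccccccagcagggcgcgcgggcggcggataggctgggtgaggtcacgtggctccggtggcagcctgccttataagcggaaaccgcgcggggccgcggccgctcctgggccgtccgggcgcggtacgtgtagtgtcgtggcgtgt

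The sterol regulatory element was matched in 1 of the 29 promoters (3.45%), that of Hmgcs1, 137 bases before its start, against 1.05% of all 32851 promoters of the table. CCAAT was found in 72.4% of the genes' promoters and in 33.8% of all promoters, and 21 of the 23 genes had at least 1 promoter with it. The Sp1 box GGGCGG, also searched on both strands and left in lower case, was found in 79.3% of the genes' promoters and in 32.7% of all promoters. Each motif was counted by itself, and matches to CCAAT and GGGCGG may share letters where they adjoin. A match is a run of letters, not a shown binding site, and a promoter without one may hold other forms of the element.

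The libraries held 3194 and 3414 cells on the ketogenic diet and 3549 and 4896 on the control diet, with 27316428 to 34106639 unique molecular identifiers (UMIs, tags that count captured RNA molecules) each. All cells carried 1 of 7 epithelial annotations by the authors, and counts were summed per library and cell type. Levels are given as CPM (UMIs divided by the depth of the sum and scaled to a common total), with TMM factors for genes and enzyme sums and without them for marker sums. Each type had its own markers at the highest level of the 7, and the Paneth class also held goblet markers at 30642 to 55664 CPM. Control library 1 stood apart, with the highest interferon and class II sum in each of the 7 types. Its summed interferon and class II genes in enterocytes were at 1040 CPM, against 87 and 115 CPM in the ketogenic libraries and 108 CPM in control library 2. Of the distinct cell barcodes, 109 of 14943 occurred in more than 1 library, on 219 cells. Stromal markers were at most 0.535 CPM in enterocytes, and immune markers at 0.268 and 3.29 CPM in the ketogenic against 3.25 and 2 CPM in the control enterocytes.

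Enterocytes, the absorptive cells of the villus, gave the largest sums of UMIs, so the pathway was followed there first. Together the 19 enzymes summed to 602 and 674 CPM in ketogenic enterocytes, against 1151 and 836 CPM in control enterocytes, a ratio of means of 0.64. All 19 had a log2 fold change below 0, with a median of -0.67, and 25 of all 28 genes did, with a median of -0.48, beside a median of 0.02 and 46.9% below 0 among the 11697 genes tested. No gene of the set passed an adjusted p of 0.05 in edgeR's quasi-likelihood test, in which 0.103% of all genes were called lower. At an unadjusted p under 0.05, 15 of the 28 genes were lower (5.45% of all genes), and DESeq2 called 9 genes of the set lower (0.975% of all genes). In 20 of the 28 genes both ketogenic libraries lay below both control libraries, as in 21.3% of all genes tested. In sums alone, fewer cells that express a gene and less RNA per cell cannot be told apart. Values of single cells are given below for the enzymes together.

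**Figure D1:**
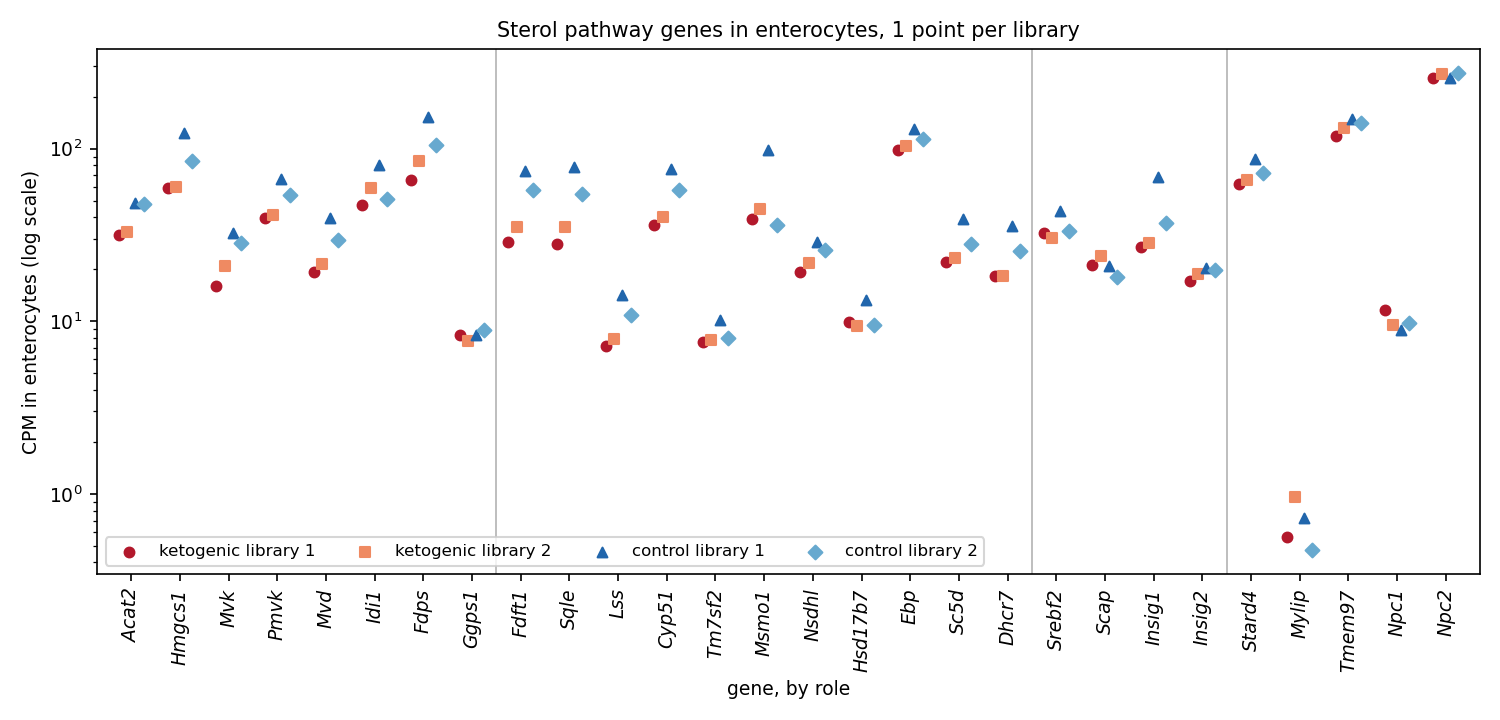
Level of each of the 28 genes in enterocytes, in CPM on a log axis, with 1 point per library and genes ordered by role (grey lines part the roles). Ketogenic points lie below both control points for 20 genes, and control library 1 is the highest point for 23 genes.

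The first steps build the isoprenoid units. Hmgcs1, the cytosolic synthase that makes HMG-CoA (chromosome 13, 119690379 to 119708260, plus strand, build GRCm38), had 59.4 and 59.8 CPM in ketogenic enterocytes, against 123 and 85 CPM in control enterocytes. The log2 fold change was -0.79 ± 0.17 (SE, as throughout, with n = 2 for each diet, edgeR adjusted p = 0.181). Both ketogenic libraries were below both control libraries, and the control libraries differed from each other by more than the ketogenic ones did. Acat2, the thiolase that joins acetyl-CoA units, had 31.6 and 33 CPM in ketogenic against 48.7 and 47.8 CPM in control enterocytes (-0.57 ± 0.10). The libraries of each diet lay close together. Mvk, mevalonate kinase, had 16 and 20.9 CPM in ketogenic against 32.4 and 28.4 CPM in control enterocytes. Pmvk, the next kinase, had 39.6 and 41.5 CPM in ketogenic against 66.6 and 53.7 CPM in control enterocytes. The log2 fold changes of these kinases were -0.71 ± 0.16 and -0.56 ± 0.13, with no overlap between the diets.

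Mvd, the decarboxylase that ends the mevalonate steps, had 19.3 and 21.5 CPM in ketogenic against 39.7 and 29.7 CPM in control enterocytes (-0.75 ± 0.16). Fdps, farnesyl pyrophosphate synthase, had 65.9 and 84.5 CPM in ketogenic against 153 and 105 CPM in control enterocytes (-0.77 ± 0.20). Idi1, the isomerase that acts between them, had 47 and 59.1 CPM in ketogenic against 80.4 and 50.8 CPM in control enterocytes. The diets overlapped, its log2 fold change was -0.30 ± 0.22, and it was 0.07 without control library 1. Ggps1, which leads to geranylgeranyl pyrophosphate and away from sterols, had 8.33 and 7.67 CPM in ketogenic against 8.31 and 8.87 CPM in control enterocytes (-0.10 ± 0.16).

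The sterol steps held the single enzymes with the largest differences. As sums the stages did not differ, with a ratio of means of 0.64 both up to farnesyl pyrophosphate and from squalene to cholesterol. Fdft1, squalene synthase and the first enzyme committed to sterols (chromosome 14, 63145150 to 63179578, minus strand), had 28.8 and 35 CPM in ketogenic enterocytes, against 74.3 and 57.7 CPM in control enterocytes. Its log2 fold change was -1.04 ± 0.16, with an edgeR adjusted p of 0.0784, the lowest of the set, and a DESeq2 adjusted p of 1.29e-05. Sqle, squalene epoxidase (chromosome 15, 59315077 to 59331192, plus strand), had 28.1 and 35.3 CPM in ketogenic against 78.5 and 54.6 CPM in control enterocytes. The log2 fold change of Sqle was -1.06 ± 0.19 (edgeR adjusted p = 0.122, DESeq2 adjusted p = 6.62e-05). Cyp51, which demethylates lanosterol, had 36.1 and 40.3 CPM in ketogenic against 76.7 and 57.8 CPM in control enterocytes (-0.81 ± 0.15). For Fdft1 the gap between the diets was wider than the gap between the libraries of either diet. For Sqle and Cyp51 it was wider than the gap between the ketogenic libraries but narrower than that between the control libraries.

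Msmo1, the methylsterol oxidase, had 39.3 and 44.4 CPM in ketogenic enterocytes, against 98.6 and 36.3 CPM in control enterocytes. Control library 1 alone was high, and the log2 fold change was -0.67 ± 0.40 with all libraries and 0.21 without it. Dhcr7, a sterol reductase near the end of the pathway, had 18.3 and 18.3 CPM in ketogenic against 35.8 and 25.4 CPM in control enterocytes (-0.73 ± 0.17). Sc5d, a sterol desaturase, had 22.1 and 23.2 CPM in ketogenic against 39.3 and 27.9 CPM in control enterocytes (-0.56 ± 0.17). Nsdhl, a sterol dehydrogenase, had 19.4 and 21.6 CPM in ketogenic against 28.6 and 26 CPM in control enterocytes. Ebp, the sterol isomerase, had 98.4 and 103 CPM in ketogenic against 130 and 113 CPM in control enterocytes. The log2 fold changes of Nsdhl and Ebp were smaller, at -0.40 ± 0.12 and -0.26 ± 0.11. Of the remaining enzymes, the cyclase Lss had -0.71 ± 0.18, and Tm7sf2 and Hsd17b7 had -0.22 ± 0.18 and -0.23 ± 0.19.

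Among the regulators, the diets differed most in Insig1, itself a classic SREBP2 target. It had 27 and 28.3 CPM in ketogenic enterocytes, against 68.8 and 37.2 CPM in control enterocytes (-0.93 ± 0.26, edgeR adjusted p = 0.292). Control library 1 was well above the others, and the value was -0.43 without it. Srebf2 had 32.4 and 30.4 CPM in ketogenic against 43.5 and 33.4 CPM in control enterocytes (-0.28 ± 0.15). Insig2 was at -0.15 ± 0.12 and Scap at 0.22 ± 0.14. Stard4, a carrier of sterol in the cytosol, had 62.7 and 66 CPM in ketogenic against 87.6 and 72.5 CPM in control enterocytes (-0.30 ± 0.12). Tmem97, a membrane protein that binds Npc1, had 119 and 132 CPM in ketogenic against 149 and 141 CPM in control enterocytes (-0.20 ± 0.11). Npc2, which hands sterol to Npc1 in the lysosome, had 256 and 269 CPM in ketogenic against 255 and 274 CPM in control enterocytes. Its log2 fold change was 0.00 to 2 decimals, and that of Npc1 was 0.18 ± 0.17. Mylip, a ubiquitin ligase for lipoprotein receptors, rested on 8 and 16 UMIs in ketogenic and 13 and 9 UMIs in control enterocytes (0.37 ± 0.49).

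Control library 1 was the highest of the 4 libraries for 23 of the 28 genes (82.1%) and for 18 of the 19 enzymes, against 32.8% of all genes tested in enterocytes. With it left out the 28 genes had a median of -0.23 instead of -0.48, 22 genes were below 0 (48.3% of all genes), and edgeR called 5 lower: Acat2, Hmgcs1, Fdft1, Sqle and Cyp51. In that fit 0.953% of all genes were called lower, against 0.103% with all 4 libraries. Against control library 2 alone, the enzyme sums of the ketogenic libraries were 0.72 and 0.81 of its value. Without control library 2 edgeR called 17 genes lower, beside 4.26% of all genes, and the median of the set was -0.60 beside 0.01 for all genes. Without ketogenic library 1 or ketogenic library 2 it called none of the set, beside 0.0416% and 0.0666% of all genes lower. In such a fit the single library of a diet is taken to vary like those of the other diet. In enterocytes control library 1 had both the highest interferon and class II sum and the highest enzyme sum. Control library 2 lay between the ketogenic libraries in the interferon and class II sum, and its enzyme sum was above both of theirs. In Paneth and tuft cells control library 1 was again highest in the interferon and class II sum, but control library 2 had the highest enzyme sum. The part of the interferon and class II level in the result was not tested beyond these values. The 5 enterocyte markers also differed between the diets, with 9978 and 5364 CPM in ketogenic against 2402 and 2650 CPM in control enterocytes, and their part was not tested. With all cells of a library summed, the enzymes came to 602 and 656 CPM on the ketogenic and 1052 and 796 CPM on the control diet. No gene of the set was called there by edgeR (0.086% of all genes lower), an unadjusted p under 0.05 was seen for 16 lower genes (5.33% of all genes), and DESeq2 called 8 (1% of all genes). In all cells edgeR called 1 gene of the set lower without control library 1 (0.387% of all genes) and 15 without control library 2 (2.12% of all genes).

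**Figure D2:**
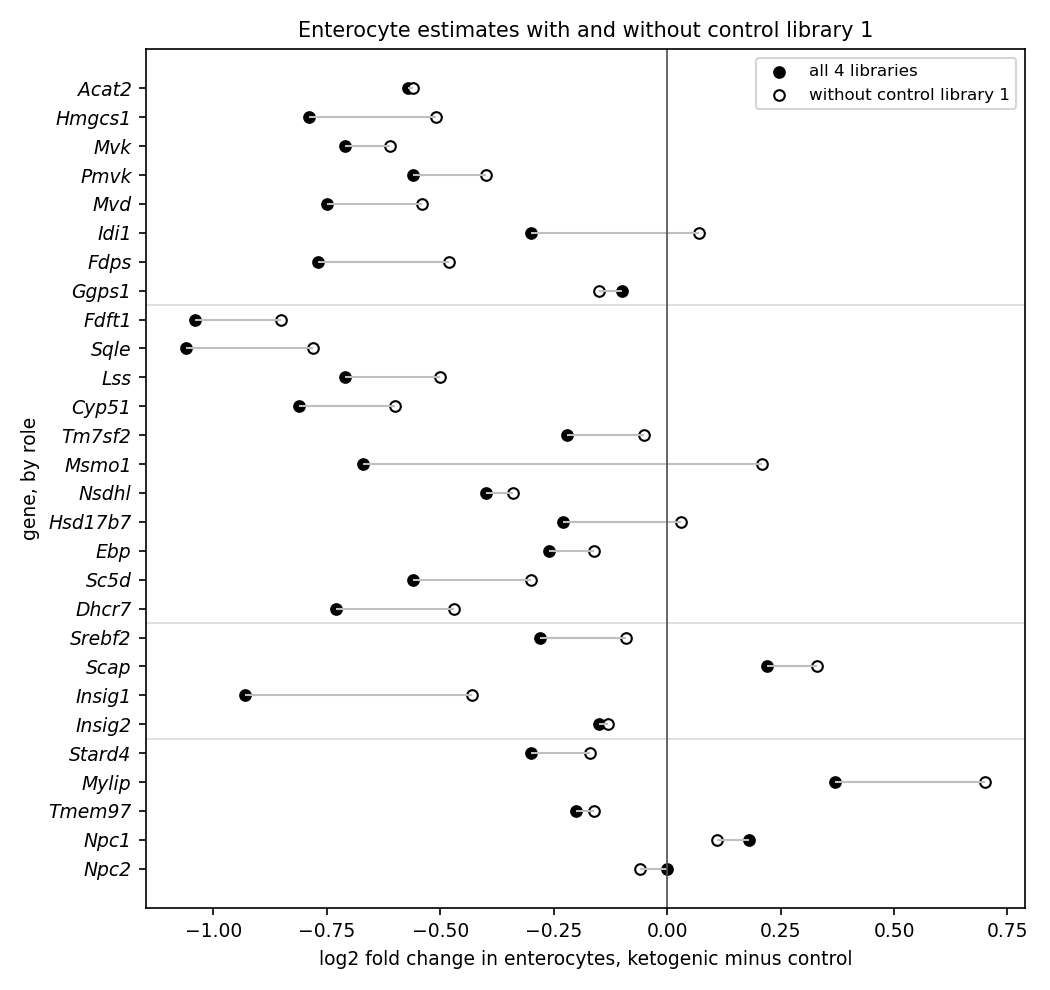
Log2 fold change of each gene in enterocytes, ketogenic minus control, with all 4 libraries (filled) and without control library 1 (open). Most open points lie nearer 0 than the filled ones, and those of Idi1 (0.07), Msmo1 (0.21) and Hsd17b7 (0.03) lie on the other side of it.

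In single enterocytes the order of the diets was that of the sums. In the median ketogenic enterocyte, 4.67 and 5.53 of every 10000 UMIs came from the 19 enzymes, against 10.3 and 6.72 in the median control enterocyte. The upper quartile was 7.91 and 8.98 in ketogenic against 15.6 and 11.2 in control enterocytes. Any enzyme UMI was found in 88% and 90.8% of ketogenic and 96.4% and 92% of control enterocytes. In enteroendocrine cells the medians were 3.78 and 4.13 on the ketogenic and 3.83 and 3.66 on the control diet, and in tuft cells 6.56 and 5.96 on the ketogenic and 6.25 and 6.46 on the control diet, so that the diets overlapped in both. Depth was not matched between cells, at a median of 9323 and 9629 UMIs per ketogenic and 8413.5 and 7342 UMIs per control enterocyte. Enterocytes of each library were also ranked by their share of villus tip genes minus that of villus base genes and split at the library's own median. The base-ranked cells had enzyme sums of 635 and 751 CPM on the ketogenic and 1344 and 968 CPM on the control diet. The tip-ranked cells had 542 and 565 CPM on the ketogenic and 893 and 669 CPM on the control diet. Ketogenic libraries were thus below control libraries at both ends. In the tip-ranked cells edgeR called Fdft1 (-0.94 ± 0.14, adjusted p = 0.0343) and Sqle (-1.03 ± 0.17, adjusted p = 0.0469) lower, beside 0.328% of all genes. In the base-ranked cells it called none of the set and 0.147% of all genes, with 16 of the set lower at an unadjusted p under 0.05 (6.38% of all genes).

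The split is not a clean scale of maturity, because stem markers were higher in the tip-ranked cells (574 to 737 CPM) than in the base-ranked cells (192 to 480 CPM). From 220 to 352 enterocytes per library lay within 5% of ranks of the cut. Villus base genes were at 3225 and 3208 CPM in the ketogenic enterocytes and 5027 and 3473 CPM in the control enterocytes, highest in the library with the highest enzyme sum, and their part in the result was not tested.

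Transit amplifying cells, the dividing progeny of the stem cells, gave 3 calls. Hmgcs1, Fdft1 and Sqle fell on the ketogenic diet, 3 of the 27 genes tested, beside 0.258% of all genes called lower there. Hmgcs1 had 34.5 and 36.6 CPM in ketogenic against 63.8 and 59.2 CPM in control cells, and fell by 0.78 ± 0.12 on the log2 scale (edgeR adjusted p = 0.00833). Fdft1 had 26.9 and 30.1 CPM in ketogenic against 56.7 and 55.3 CPM in control cells, and fell by 0.96 ± 0.13 (edgeR adjusted p = 0.00297). Sqle had 27.5 and 29.5 CPM in ketogenic against 66.9 and 49.3 CPM in control cells, and fell by 1.01 ± 0.16 (edgeR adjusted p = 0.00869). For Hmgcs1 and Fdft1 the control libraries were close to each other, and without control library 1 the log2 fold changes were -0.72 and -0.94. DESeq2 and the fit without control library 1 also called Hmgcs1, Fdft1 and Sqle. Without ketogenic library 1, Fdft1 alone passed, and Hmgcs1 and Sqle had edgeR adjusted p values of 0.0864 and 0.0796. Without ketogenic library 2 there were 5 calls, and without control library 2 there were 9, all lower. All genes called lower made up 0.115% without ketogenic library 1, 0.36% without ketogenic library 2, 0.788% without control library 1 and 1.43% without control library 2.

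Of the 27 genes tested in transit amplifying cells, 24 were below 0 (48.8% of all genes), with a median of -0.33 beside 0.00 for all genes, and 13 were lower with an unadjusted p under 0.05 (4.44% of all genes). Both ketogenic libraries were below both control libraries for 17 of them, as for 20.4% of all genes. Insig1 had 20.2 and 24.1 CPM in ketogenic against 55.5 and 32.5 CPM in control cells (-0.95 ± 0.22, edgeR adjusted p = 0.0896). Cyp51 and Fdps had log2 fold changes of -0.62 ± 0.14 and -0.59 ± 0.14, and Idi1 again was near 0, at -0.05 ± 0.16. Scap was the regulator with a positive value (0.37 ± 0.14, edgeR adjusted p = 0.423). Insig1, Cyp51, Fdps, Idi1 and Scap were chosen here after their values were seen. The enzyme sums were 514 and 576 CPM in ketogenic against 830 and 696 CPM in control cells. Interferon and class II genes were at 102 and 118 CPM in ketogenic and 1123 and 90.7 CPM in control cells, and enterocyte markers at 3075 and 1973 CPM in ketogenic and 724 and 818 CPM in control cells. Their part in the calls was not tested.

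Goblet cells, which secrete mucus, also gave 3 calls. Hmgcs1, Mvd and Fdft1 fell, 3 of 27 genes tested, beside 0.21% of all genes called lower and 0.521% called in either direction. Hmgcs1 had 103 and 118 CPM in ketogenic against 201 and 164 CPM in control goblet cells, a fall of 0.72 ± 0.11 on the log2 scale (edgeR adjusted p = 0.00476). Mvd (chromosome 8, 122433601 to 122443422, minus strand) had 27.2 and 35.5 CPM in ketogenic against 60 and 47.4 CPM in control goblet cells, a fall of 0.78 ± 0.15 (edgeR adjusted p = 0.0406). Fdft1 had 62 and 68.9 CPM in ketogenic against 105 and 102 CPM in control goblet cells, a fall of 0.66 ± 0.10 (edgeR adjusted p = 0.00576). Hmgcs1 and Fdft1 separated the diets by more than the libraries of either diet differed. The call of Mvd was the least firm, with a DESeq2 adjusted p of 0.266 and an edgeR adjusted p of 0.0504 with no filter on low counts. Without control library 2 there were 8 calls, all lower, beside 0.912% of all genes called lower in that fit.

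In goblet cells 24 of the 27 genes were below 0 (49.9% of all genes), with a median of -0.29 beside 0.00 for all genes. An unadjusted p under 0.05 was reached by 12 lower genes (4.54% of all genes), and 16 genes did not overlap with ketogenic lower, as 18.7% of all genes did. The enzyme sums were 936 and 965 CPM in ketogenic against 1326 and 1160 CPM in control goblet cells. Insig2 had the highest value of the set there, 0.39 ± 0.16, with 32.5 and 29.5 CPM in ketogenic against 21.3 and 25.8 CPM in control goblet cells. It was chosen after its value was seen and did not pass the test (edgeR adjusted p = 0.408). Ebp (-0.00 ± 0.09) and Nsdhl (-0.03 ± 0.21) were nearest to 0 among the enzymes, with Ggps1 (-0.03 ± 0.27). Interferon and class II genes were at 92.5 and 101 CPM in ketogenic and 474 and 150 CPM in control goblet cells, and enteroendocrine markers at 25.6 and 25.6 CPM in ketogenic and 320 and 29.4 CPM in control goblet cells. Enterocyte markers were at 2484 and 2084 CPM in ketogenic and 1568 and 1604 CPM in control goblet cells. The part of these markers in the calls was not tested.

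**Figure D3:**
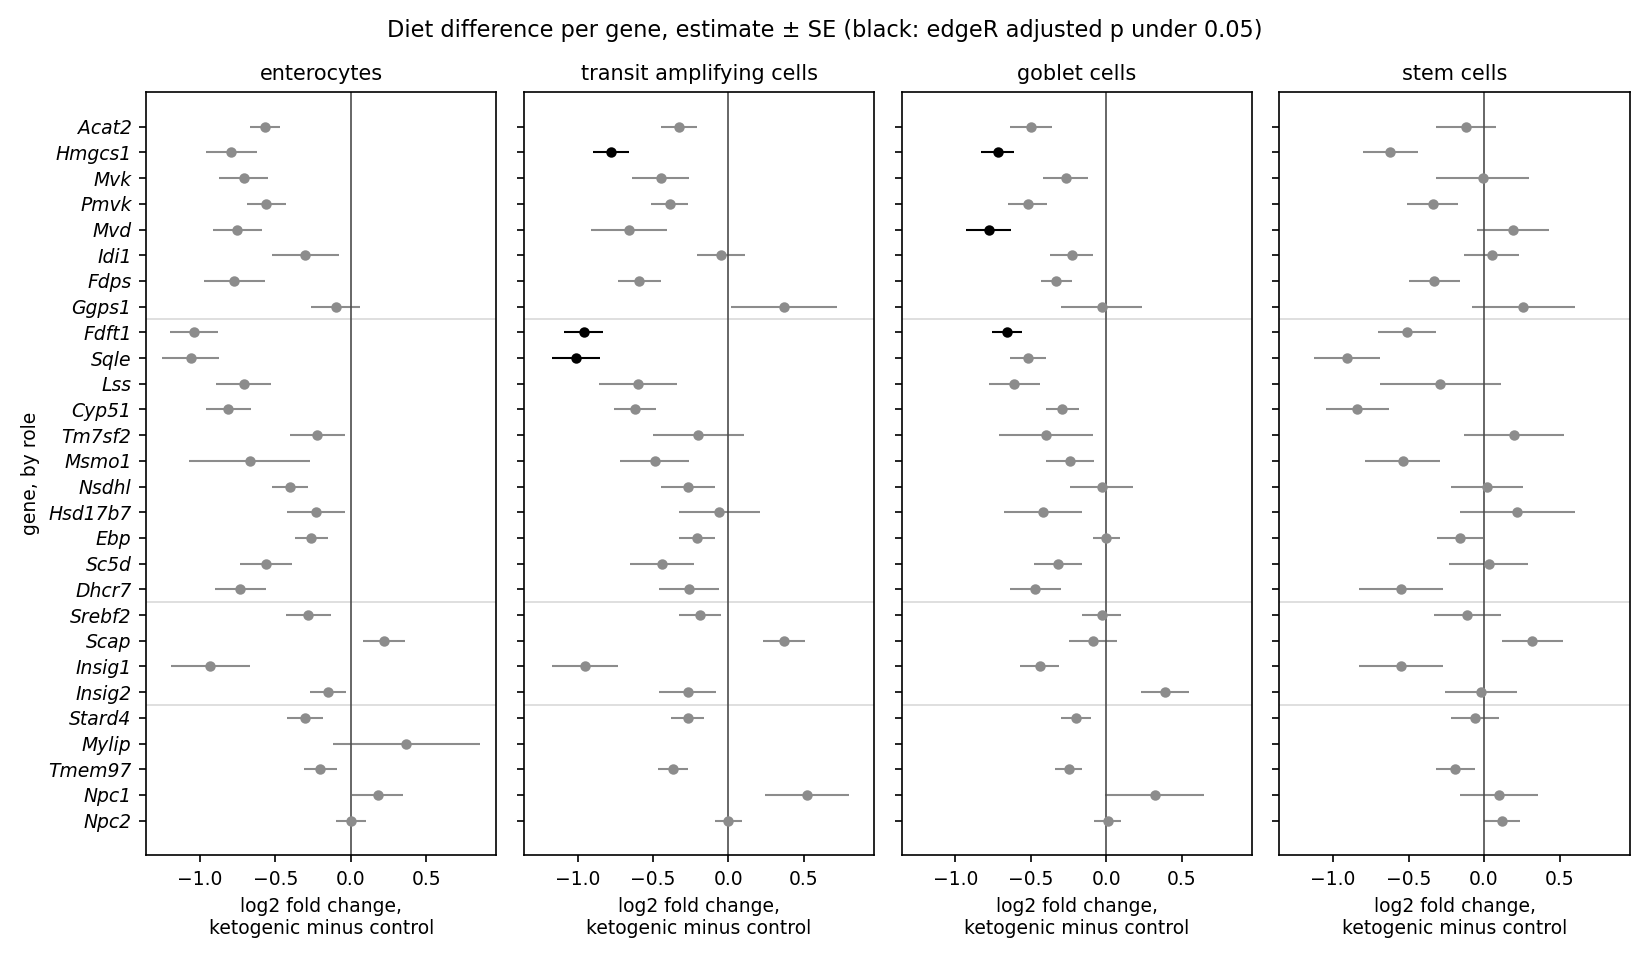
Log2 fold change of each gene, ketogenic minus control, ± SE in enterocytes, transit amplifying, goblet and stem cells, with edgeR calls in black. The black points are Hmgcs1, Fdft1 and Sqle in transit amplifying cells and Hmgcs1, Mvd and Fdft1 in goblet cells, and Mylip is drawn only where it was tested.

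Stem cells at the crypt base had a median nearer to 0. Of the 27 genes tested, 17 were below 0 (49.9% of all genes) and 10 above, with a median of -0.11 beside 0.00 for all genes. No gene of the set was called by edgeR, where 0.0736% of all genes were called lower, nor by DESeq2, which called 0.0315% of all genes lower, and 5 had an unadjusted p under 0.05, all lower (2.82% of all genes). The enzyme sums were 388 and 402 CPM in ketogenic against 508 and 466 CPM in control stem cells. In 12 genes the ketogenic libraries lay below both control libraries, as in 17.7% of all genes. Without control library 2 edgeR called 3 genes lower (0.469% of all genes), and without ketogenic library 1 it called 1 (0.167% of all genes). Interferon and class II genes were at 181 and 198 CPM in ketogenic and 1682 and 157 CPM in control stem cells. Enterocyte markers were at 1292 and 975 CPM in ketogenic and 361 and 451 CPM in control stem cells. The median mitochondrial share of UMIs was 16.2% and 8.52% in ketogenic and 11.5% and 8.26% in control stem cells, and the part of these measures in the values was not tested.

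Hmgcs1 had 25.7 and 25.4 CPM in ketogenic against 40.9 and 38.1 CPM in control stem cells (-0.62 ± 0.18, edgeR adjusted p = 0.25). Fdft1 had 22.8 and 27.1 CPM in ketogenic against 39.9 and 33.6 CPM in control stem cells (-0.51 ± 0.19). Sqle, with 19.9 and 15.4 CPM in ketogenic and 38.9 and 27.2 CPM in control stem cells, and Cyp51, with 15.8 and 18.5 CPM in ketogenic and 36.4 and 27.8 CPM in control stem cells, were chosen after their values were seen. They had the lowest log2 fold changes there, -0.91 ± 0.22 and -0.84 ± 0.21 (edgeR adjusted p = 0.0928 and 0.108). Fdps had 33.3 and 40.5 CPM in ketogenic against 51.3 and 44.5 CPM in control stem cells, and Pmvk had 29.2 and 33.4 CPM in ketogenic against 38.4 and 41.7 CPM in control stem cells. Both were lower without overlap, by smaller amounts (-0.33 ± 0.17 and -0.34 ± 0.17).

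The other genes of the 10 with the highest mean level in stem cells had fold changes nearer to 0. Idi1 had 36.3 and 32.5 CPM in ketogenic against 36.9 and 29.9 CPM in control stem cells. Ebp had 58.5 and 73.9 CPM in ketogenic against 69.8 and 79.9 CPM in control stem cells. Stard4 had 39.2 and 41.1 CPM in ketogenic against 41.9 and 42.3 CPM in control stem cells. The log2 fold changes of these genes were 0.05 ± 0.18, -0.16 ± 0.15 and -0.06 ± 0.16. Tmem97 had 83.6 and 99.3 CPM in ketogenic against 101 and 110 CPM in control stem cells. Npc2 had 319 and 332 CPM in ketogenic against 277 and 324 CPM in control stem cells, and Srebf2 had 28.7 and 25.1 CPM in ketogenic against 35.9 and 23.3 CPM in control stem cells. Their log2 fold changes were -0.19 ± 0.13 for Tmem97, 0.12 ± 0.12 for Npc2 and -0.11 ± 0.22 for Srebf2, and the diets overlapped for Npc2 and Srebf2. Mylip was at 1 and 9 UMIs in ketogenic and 0 and 2 UMIs in control stem cells and was not tested.

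The smaller classes gave less precise values. In Paneth cells 15 of the 28 genes passed the filter on low counts, which depends on the level, with 11 below 0 (51% of all genes), a median of -0.33 and no call by edgeR (0.44% of all genes called in either direction, 0% lower). DESeq2 gave none of them an adjusted p. Hmgcs1 had 141 and 157 CPM in ketogenic against 241 and 240 CPM in control Paneth cells (-0.68 ± 0.18, edgeR adjusted p = 0.306), and it was the single gene of the set with an unadjusted p under 0.05 there (3.08% of all genes lower). In enteroendocrine cells 21 genes were tested, with 16 below 0 (49.5% of all genes), a median of -0.06 and no call by edgeR (0.0582% of all genes, 0.0291% lower) or DESeq2. There 1 gene, Idi1, was higher with an unadjusted p under 0.05 (0.92 ± 0.43), and none was lower (2.43% of all genes). In tuft cells 23 genes were tested, with 14 below 0 (51% of all genes), a median of -0.18, no call by edgeR (0.0144% of all genes) or DESeq2, and 0 genes at an unadjusted p under 0.05 (2.76% of all genes lower). Paneth cells numbered 55 and 42 in the ketogenic and 35 and 56 in the control libraries, and their Paneth markers were at 205325 and 153969 CPM in the ketogenic and 88011 and 42351 CPM in the control libraries. Hmgcs1 and Idi1 were chosen here after their values were seen.

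**Figure D4:**
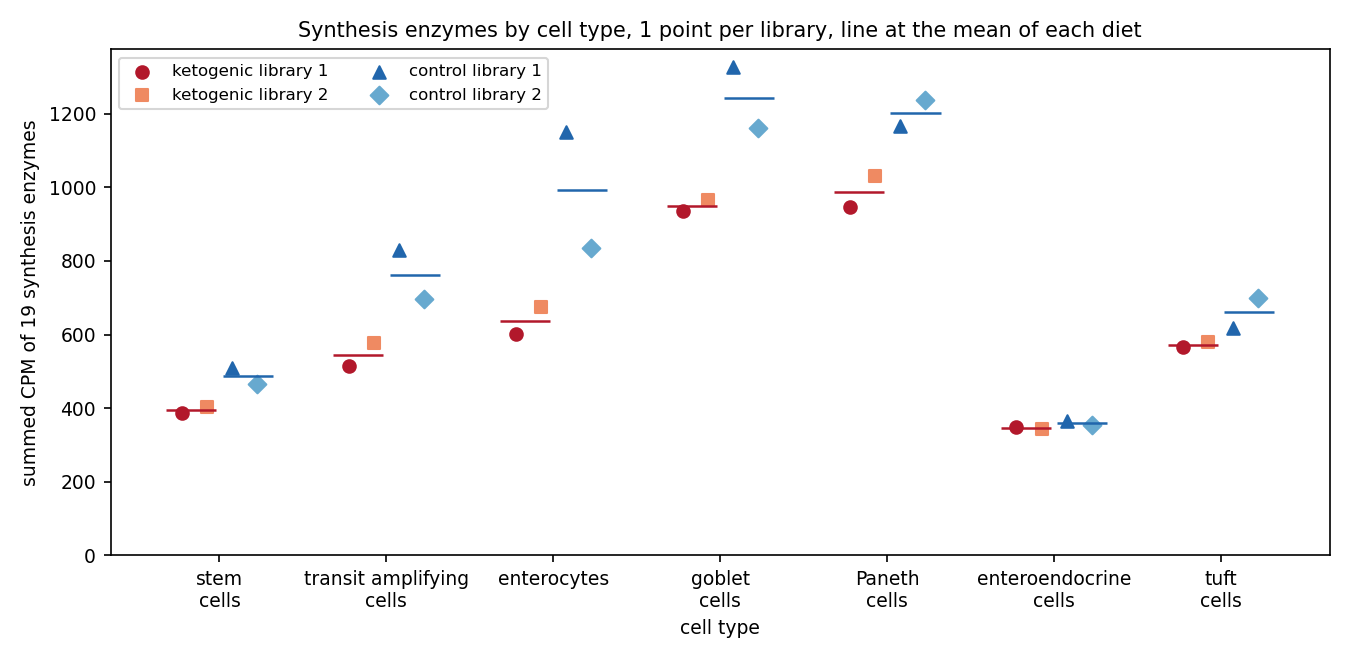
Summed level of the 19 synthesis enzymes in CPM by cell type, with 1 point per library and a line at the mean of each diet. Both ketogenic points lie below both control points in each of the 7 types, with a ratio of means of 0.96 in enteroendocrine cells. Without TMM scaling the enteroendocrine points overlap.

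Whether the diet difference itself varied between cell types was tested with an interaction term in 6 pairs of cell types. Its value is the log2 fold change in the cell type named first minus that in the other. Only the pair of enterocytes and stem cells was planned. The other pairs, each against enterocytes, were added after the data were seen. For enterocytes minus stem cells, 25 of 27 genes were below 0 (52.3% of all genes), with a median of -0.24 beside -0.02 for all genes. None was called by edgeR (0.259% of all genes) or DESeq2, and 5 had an unadjusted p under 0.05 (6.94% of all genes): Acat2, Mvk, Mvd, Fdps and Fdft1. The largest was Mvd, at -0.91 ± 0.24 (edgeR adjusted p = 0.131). Mvd had 15.8 and 21.7 CPM in ketogenic against 19.9 and 15.1 CPM in control stem cells, where it overlapped. A weaker diet difference in stem cells was thus not shown for any single gene. With only cells under 10% mitochondrial UMIs, 18 of 27 interaction values were below 0 (50.9% of all genes), with a median of -0.22. With a library left out, the median ran from -0.42 (without control library 2) to -0.16 (without control library 1).

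Between goblet cells and enterocytes the interaction was above 0 for 23 of 28 genes, with a median of 0.21, and edgeR called none (0.61% of all genes). Of the 8 genes with an unadjusted p under 0.05 (9.16% of all genes), Fdps (0.46 ± 0.12), Cyp51 (0.53 ± 0.14) and Sqle (0.55 ± 0.16) had the lowest p values. Between transit amplifying cells and enterocytes the median was 0.10, with no call (0.0871% of all genes) and 1 gene, Dhcr7, at an unadjusted p under 0.05 (5.32% of all genes). Between Paneth cells and enterocytes the median was 0.29, with no call (0.344% of all genes) and 1 gene, Fdps, at an unadjusted p under 0.05 (4.91% of all genes). That median covers all 28 genes, of which only 15 passed the filter on low counts in Paneth cells alone. All 28 also entered the enteroendocrine and tuft pairs, where 21 and 23 passed in those cells alone. Between enteroendocrine cells and enterocytes edgeR called 1 gene, Fdps (1.14 ± 0.27, adjusted p = 0.0379), beside 0.22% of all genes, and 5 genes had an unadjusted p under 0.05 (4.83% of all genes). Fdps had 46.7 and 45.4 CPM in ketogenic against 41 and 32.9 CPM in control enteroendocrine cells, while ketogenic was lower in enterocytes. Between tuft cells and enterocytes edgeR called 1 gene, Fdft1 (1.13 ± 0.24, adjusted p = 0.00213), beside 0.203% of all genes, and 6 genes had an unadjusted p under 0.05 (5.47% of all genes). Fdft1 had 75.6 and 74.1 CPM in ketogenic against 72.3 and 69.4 CPM in control tuft cells. DESeq2 called neither interaction, and neither was called without control library 1 or without ketogenic library 1. The call of Fdps was also lost without control library 2, and that of Fdft1 without ketogenic library 2.

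The cell types also differed in the level of the pathway. Within each gene, enterocytes were higher than stem cells for most of the set in a fit of both types with library as a block. Of 27 genes tested, 22 were higher in enterocytes, beside 22.8% of all genes, and 2 were lower, Npc1 (-0.69 ± 0.14) and Npc2 (-0.24 ± 0.07). The median log2 difference was 0.64. Msmo1 (1.60 ± 0.13), Insig1 (1.31 ± 0.11), Hmgcs1 (1.30 ± 0.09), Mvk (1.29 ± 0.16) and Fdps (1.24 ± 0.09) had the largest differences, and were chosen after their values were seen. Transit amplifying cells were already higher than stem cells for 18 of 27 genes, beside 21.7% of all genes, and lower for Npc1 (-0.84 ± 0.17) and Npc2 (-0.44 ± 0.05). Insig1 (1.02 ± 0.12) and Fdps (0.97 ± 0.08) led there. DESeq2 called 13 genes of the set in that comparison, against 20 by edgeR.

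By mean level over the 4 libraries after TMM scaling, the highest type was Paneth for 11 genes, goblet for 9, and stem, transit amplifying and enterocyte for 2 each, with 1 each in enteroendocrine and tuft cells. For none of the 28 genes did the lowest library of the highest type lie above the highest library of the next type. Compared within each library, the highest type was above the next in all 4 libraries for 2 genes, Hmgcs1 and Insig1 (Paneth above goblet), in 3 libraries for 16 genes and in 2 libraries for 10 genes. These ranks rest on TMM factors of 0.552 to 0.840 in Paneth and 0.911 to 0.960 in goblet cells, and ranks without them were not counted. Insig1 had 10 to 16 UMIs per library in Paneth cells. The enzyme sums of Paneth cells depended on the scaling between types. They were 946 and 1031 CPM in ketogenic and 1166 and 1236 CPM in control Paneth cells after TMM scaling, and 522 and 704 CPM in ketogenic and 968 and 1038 CPM in control Paneth cells without TMM scaling. Goblet sums without it were 864 and 922 CPM in ketogenic and 1273 and 1057 CPM in control cells, below which Paneth cells lay in each of the 4 libraries. With TMM scaling neither class was above the other in every library. Enteroendocrine cells had the lowest sums after TMM scaling, 349 and 343 CPM in ketogenic and 365 and 353 CPM in control cells. Without that scaling they were 429 and 430 CPM in ketogenic and 491 and 414 CPM in control cells, and the diets overlapped.

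Genes next to the pathway were followed in lists. The isoprenoid branch, which uses farnesyl pyrophosphate for prenylation, dolichol and ubiquinone, had a median log2 fold change of -0.01 over 12 genes in enterocytes, with 6 below and 6 above 0 and none called. Its lowest p values were those of Rabggtb (0.23 ± 0.10), Pdss2 (-0.28 ± 0.14) and Coq2 (0.14 ± 0.10). Of 9 tested genes that process SREBP or act in sterol-regulated degradation, none was called, and the lowest p values were those of Erlin1 (-0.37 ± 0.16), Mbtps2 (0.26 ± 0.14) and Faf2 (-0.17 ± 0.11). The 6 other SREBP targets had a median of -0.29 in enterocytes and none was called there, with Lpin1 at -1.01 ± 0.27, Aacs at -0.64 ± 0.18 and Rdh11 at -0.33 ± 0.11. Aacs, which activates acetoacetate in the cytosol for lipid synthesis, fell in goblet cells, with 38.1 and 36.3 CPM in ketogenic against 57.9 and 55.3 CPM in control cells (-0.61 ± 0.12, edgeR adjusted p = 0.0406, DESeq2 adjusted p = 0.571).

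The SREBP1 lipogenic list, genes of fatty acid synthesis, had 7 of 9 tested genes below 0 in enterocytes and a median of -0.17. Me1, malic enzyme, rose there, with 56.4 and 29 CPM in ketogenic against 5.64 and 4.04 CPM in control enterocytes (3.15 ± 0.34, edgeR adjusted p = 0.0366). It also rose in transit amplifying (2.85 ± 0.44, edgeR adjusted p = 0.00833) and goblet cells (2.52 ± 0.40, edgeR adjusted p = 0.00576). Scd2, a fatty acid desaturase, fell in stem cells, with 15.2 and 18 CPM in ketogenic against 68.3 and 34.8 CPM in control cells (-1.54 ± 0.25, edgeR adjusted p = 0.00193). Scd2 also fell in transit amplifying (-2.18 ± 0.26, edgeR adjusted p = 0.00149) and goblet cells (-2.23 ± 0.16, edgeR adjusted p = 1.93e-06). In enterocytes Scd2 had 23.3 and 34.9 CPM in ketogenic against 224 and 107 CPM in control cells and was not called (-2.50 ± 0.35, edgeR adjusted p = 0.0659). Srebf1, Acly, Acaca and Fasn, chosen after their values were seen, were between -0.23 and -0.06 in enterocytes.

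Genes that move sterol in and out of the enterocyte had no call by edgeR with all 4 libraries, while DESeq2 called Npc1l1 and Abcg5 lower (adjusted p = 0.0018 and 0.00256). Npc1l1, the uptake transporter of the brush border, had 21.2 and 17.9 CPM in ketogenic against 52.7 and 30.2 CPM in control enterocytes (-1.07 ± 0.25, edgeR adjusted p = 0.218). Without control library 1 its log2 fold change was -0.63 (edgeR adjusted p = 0.0468). Abcg5, which pumps sterol back to the lumen, had 19.5 and 20.9 CPM in ketogenic against 44.5 and 31.7 CPM in control enterocytes (-0.90 ± 0.17, edgeR adjusted p = 0.128, and 0.0264 without control library 1). Its partner Abcg8 had -0.41 ± 0.15, and the efflux pump Abca1 had 1.21 ± 0.36 at levels of 2.1 and 1.8 CPM in ketogenic against 1 and 0.682 CPM in control enterocytes. The LXR list held Abcg5, Abcg8 and Abca1 and had a median of 0.00 to 2 decimals over 6 genes. In the sterol handling list, which holds Npc1l1 and has a median of 0.11 over 8 genes, Lipa (0.56 ± 0.35) and Soat2 (-0.39 ± 0.26) followed Npc1l1 by p value.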

How the data were processed

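Cells were captured as 10x 3' (version 2) libraries. The authors deposited a matrix of UMI counts, not normalized, and an annotation that gives each cell a library and a cell type. Cell Ranger 2.1.0 and build mm10 are named per the submitters' processing notes. How cells were filtered is unknown here. No doublet caller was run, so doublets may add transcripts of other cell types to a sum.

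Counts were summed per library and annotated cell type, and libraries, not cells, served as replicates (2 per diet). The diets were compared in R 4.3.3 with the quasi-likelihood test of edgeR 4.0.16 (TMM scaling, filterByExpr, Benjamini-Hochberg adjustment over all genes tested, threshold 0.05), fitted to each cell type alone. Interactions and cell type differences were fitted to sums of both types with library as a block. The SE is the size of the log2 fold change divided by the square root of F. CPM values use TMM factors common to all types, and levels are not compared between genes. Alternatives were DESeq2 1.42.0, RLE scaling, no filter, cells with under 10% mitochondrial UMIs, a replicate block and each library left out. The fitting script was tested on simulated data. Libraries held 27316428 to 34106639 UMIs, and intervals from replicates cover only the spread of 2 libraries. Gene positions are those of GENCODE on GRCm38.

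The genes and the neighbouring lists were chosen with earlier results of these data known. Per-library values are given for called genes and, where fewer than 10 were called, for the genes with the highest mean level, up to 20 in enterocytes and 10 in stem cells. Of each neighbouring list, called genes or else up to 3 with the lowest p are named. Exceptions are marked as chosen after their values were seen.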

Additional observations from a re-analysis of the deposited data

Results flagged for a closer look

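Both results given here are edgeR calls of an interaction of diet and cell type, in pairs of cell types added after the data were seen. The ketogenic minus control log2 difference of Fdps in enteroendocrine cells exceeded that in enterocytes by 1.14 ± 0.27 (edgeR adjusted p = 0.0379). The libraries held 71 and 34 Fdps UMIs in ketogenic and 21 and 29 in control enteroendocrine cells. The log2 difference of Fdft1 in tuft cells exceeded that in enterocytes by 1.13 ± 0.24 (edgeR adjusted p = 0.00213), on 78 and 76 UMIs in ketogenic and 50 and 56 in control tuft cells. Neither was called by DESeq2, without control library 1 or without ketogenic library 1. Fdps was also not called without control library 2, nor Fdft1 without ketogenic library 2. With a library left out, the edgeR adjusted p ran from 0.0296 to 1 for Fdps and from 0.00163 to 0.804 for Fdft1. These comparisons were 2 of the 6 pairs of cell types tested, and p-values were adjusted over genes within each pair, not over pairs.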

How the results depend on the processing

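The number of the 28 genes called depended on the setting. With DESeq2 it was 8 in all cells, 9 in enterocytes and 13 between transit amplifying and stem cells, and 0 in both the enteroendocrine and the tuft interaction. With no filter on low counts it was 13 in all cells, 2 in stem cells, 8 in transit amplifying cells and 12 in enterocytes. Of all genes, DESeq2 called 1.63% in all cells and 1.5% in enterocytes. With no filter, 2.26% of all genes were called in all cells, 0.513% in stem cells, 1.88% in transit amplifying cells and 1.88% in enterocytes. Leaving out each library in turn gave 0 to 15 in all cells, 0 to 3 in stem cells, 1 to 9 in transit amplifying cells, 0 to 17 in enterocytes and 3 to 8 in goblet cells. The share of all genes called in these fits ran from 0.222% to 2.77% in all cells, 0.47% to 1.07% in stem cells, 0.356% to 2.81% in transit amplifying cells, 0.0998% to 6.37% in enterocytes and 0.964% to 1.82% in goblet cells. It gave 0 to 1 between enterocytes and stem cells, 0 to 1 in the enteroendocrine and 0 to 4 in the tuft interaction, the last 2 being alternatives chosen after seeing the data, beside 0.118% to 3%, 0.129% to 0.557% and 0.0248% to 0.718% of all genes. The highest counts came without control library 2, except in the enteroendocrine interaction.

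The replicate block gave 2 calls in stem cells, 7 in transit amplifying cells and 1 in enterocytes, and a median of -0.14 in enteroendocrine cells. All these calls were lower, beside 0.399% of all genes called lower in stem cells, 0.943% in transit amplifying cells and 0.675% in enterocytes. Same-numbered libraries did not deviate together (r from -0.04 to 0.08), so the numbers are not taken to pair them. The median of the genes was -0.21 in stem cells with low mitochondrial share, -0.19 in Paneth cells with no filter and -0.12 in enteroendocrine cells with DESeq2. With a library left out it ran from -0.60 to -0.23 in enterocytes, -0.42 to -0.21 in goblet, -0.44 to -0.08 in Paneth, -0.17 to -0.08 in enteroendocrine and -0.21 to -0.01 in tuft cells.

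Of 334 values of named genes under alternatives, 269 kept direction and call, 42 became called, 12 lost their call and 11 changed sign, of genes that were not called. With low mitochondrial share, Stard4 became 0.00, Srebf2 0.08 and Idi1 -0.21 in stem cells, and Npc2 0.01 in enterocytes. With a library left out, Idi1 ran from -0.12 to 0.19 and Srebf2 from -0.44 to 0.19 in stem cells, and Npc2 ran from -0.06 to 0.04, Idi1 from -0.60 to 0.07 and Msmo1 from -1.24 to 0.21 in enterocytes. The cause was not tested.

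Over all genes, edgeR called 21 in enterocytes, against 176 by DESeq2, 313 with no filter, 137 with the block and 51 with low mitochondrial share. In all cells it called 22, against 208 by DESeq2, 407 with no filter and 69 with the block. In transit amplifying cells it called 72, against 279 with no filter and 200 with the block. In stem cells it called 32, against 12 by DESeq2, 74 with no filter and 99 with the block, and in goblet cells 52, against 24 by DESeq2 and 104 with the block. In Paneth cells it called 13, against 44 with no filter, 20 with low mitochondrial share and 57 with the block. Between transit amplifying and stem cells it called 4086, against 2100 by DESeq2, and for the interaction of enterocytes and stem cells 30, against 12 by DESeq2. In the enteroendocrine interaction it called 27, against 4 by DESeq2, and in the tuft interaction 24, against 1. In enteroendocrine cells it called 4 (2 to 27) and in tuft cells 1 (0 to 4) over these settings.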
